A study of Mus musculus with 44 samples.

Results

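Potassium channel genes were followed through neuronal chromatin of 4 mouse brain regions and through RNA of PVT, the paraventricular nucleus in the midline of the thalamus. They were taken as the protein-coding genes whose symbol begins with Kcn, 94 of 21887 protein-coding genes, in 21 subfamilies. A peak was assigned to a gene when it overlapped the gene span (mm10) extended by 5 kb on each side. All mice were adult and of strain C57BL/6 by the labels, except that those of the ATAC libraries give C57BL/7, C57BL/8, C57BL/9 and C57BL/10, and either wild type (WT) or Polg(D181A), which carry a proofreading-deficient mitochondrial DNA polymerase. As background from the literature on the line of this name and not from the labels, the mutant enzyme is a transgene driven in forebrain neurons by the Camk2a promoter. Acetylation of lysine 27 on histone H3 (H3K27ac), found at promoters and enhancers in use, was counted in PVT, in cortex (COR) and in 2 striatal regions, the caudate putamen (CP) and the nucleus accumbens (NAC), with 2 WT and 2 Polg(D181A) libraries in each region. Accessible chromatin of PVT was mapped by ATAC-seq, again with 2 WT and 2 Polg(D181A) libraries. Nuclei for both assays were sorted after staining for NeuN, a neuronal nuclear protein. RNA came from 20 PVT libraries in 5 groups of 4, namely WT euthymic COX-positive, Polg(D181A) euthymic COX-positive, Polg(D181A) euthymic COX-negative, Polg(D181A) depressive COX-positive and Polg(D181A) depressive COX-negative. COX is cytochrome c oxidase, a respiratory chain enzyme whose stain is lost in cells with many mitochondrial DNA defects, and no WT library was COX-negative or depressive. The labels name no animal for a replicate, so p-values measure the spread between libraries, which may be technical.

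Potassium channels let potassium leave the neuron and so set its resting potential, the width of a spike and the pause after it. Voltage-gated pores (Kcna, Kcnb, Kcnc, Kcnd, Kcnh, Kcnq) open on depolarization, and silent subunits (Kcnf, Kcng, Kcns, Kcnv) join Kcnb pores and change their properties. Inward rectifiers (Kcnj) and tandem-pore leak channels (Kcnk) act near rest, calcium- or sodium-activated pores (Kcnma, Kcnn, Kcnt) follow activity, and auxiliary subunits (Kcnab, Kcne, Kcnip, Kcnmb) tune the pores. Thalamic neurons fire in bursts or in single spikes, and potassium conductances take part in the switch.

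Total counts ranged from 6415127 to 197650530 per H3K27ac library, from 2932270 to 8040451 per ATAC library and from 26719334 to 115285349 per RNA library. The share of peaks without a count was 7.10% to 13.8% in PVT, and reached 80.8% in the second CP WT library and 69.6% in the second NAC WT library, which are called sparse below. It was 52.5% in the first Polg(D181A) CP library, 41.9% in the second COR WT library and 15.7% to 30.5% in the others outside PVT. The 2 WT and the 2 Polg(D181A) libraries correlated at 0.73 and 0.63 in PVT. The values were 0.37 and 0.43 in COR, 0.21 and 0.34 in CP and 0.50 and 0.08 in NAC. Region contrasts thus set PVT beside libraries with more empty peaks and lower correlations, and the part of this was not tested. The neuronal markers Rbfox3, Snap25, Syt1, Tubb3, Map2 and Stmn2 had peaks in all 4 regions, and their summed level was 2400 to 5232 CPM, counts scaled to a common library size. The 5 thalamic markers, with Tcf7l2 at 1204 ± 133 CPM (SD, n = 4), summed to 1825 to 2330 CPM in PVT and to 25.0 to 118 CPM elsewhere. The 5 cortical markers summed to 952 to 1490 CPM in COR, and the 6 striatal markers to 1009 to 2046 CPM in CP and NAC. Astrocyte markers summed to 143 to 164 CPM in PVT and 70.5 to 199 CPM elsewhere, with 3 of 6 without a PVT peak. Microglial markers, of which 1 of 2 tested was higher in PVT, summed to 40.0 to 66.6 CPM, endothelial and mural markers to 50.6 to 85.7 CPM and oligodendrocyte lineage markers to 428 to 507 CPM in PVT. The last sum was mostly Mbp, at 433 ± 27.4 CPM, and 3 of the 7 had no PVT peak.

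The genes held 1096 H3K27ac peaks in PVT, 1197 in COR, 1057 in CP and 1127 in NAC, and 679 ATAC peaks. These reached 85, 80, 77, 88 and 89 of the 94 genes. Between 4.61% and 6.48% of the peaks also lay in the window of another protein-coding gene, and Kcnip1 and Kcnmb1, which lie over each other, shared 2 PVT, 1 NAC and 2 ATAC peaks. Kcnk16 and Kcnrg had no H3K27ac peak in any region. Kcne1l, Kcnk16, Kcnrg, Kcns1 and Kcnv2 had no ATAC peak. Of the 679 open regions, 291 (42.9%) overlapped a PVT H3K27ac peak, against 42.6% of all 89792.

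The sequences before 6 starts of 5 genes are shown first, because these genes are among those that differed most between PVT and the other regions and their promoters differ in which regions were acetylated. Each is the 250 bases before a RefSeq start (GRCm38.p6, the mm10 assembly). RefSeq promoter entries were matched by symbol for 69 of the 94 genes, with 94 entries in all. For Kcnip1 only starts in a PVT H3K27ac peak are shown, and for Kcnq5 only the start in a PVT ATAC peak. Another Kcnip1 entry, chr11:33680683-33680932, lay in no H3K27ac or ATAC peak. Capitals mark the GC box, GGGCGG on either strand (CCGCCC when read from the other), an element bound by Sp1-type activators. Kcnip1 encodes a calcium-binding partner of Kcnd channels, Kcnn3 a small-conductance calcium-activated channel, Kcnj4 a strong inward rectifier, Kcnh1 an ether-a-go-go channel and Kcnq5 an M-current channel.
Kcnip1, outer start, chr11:33993194-33993443, minus strand: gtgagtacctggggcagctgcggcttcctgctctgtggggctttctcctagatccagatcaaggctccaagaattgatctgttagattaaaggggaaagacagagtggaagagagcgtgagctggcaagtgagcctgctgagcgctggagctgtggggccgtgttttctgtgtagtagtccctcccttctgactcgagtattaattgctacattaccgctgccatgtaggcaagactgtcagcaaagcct
Kcnip1, inner start, chr11:33843687-33843936, minus strand: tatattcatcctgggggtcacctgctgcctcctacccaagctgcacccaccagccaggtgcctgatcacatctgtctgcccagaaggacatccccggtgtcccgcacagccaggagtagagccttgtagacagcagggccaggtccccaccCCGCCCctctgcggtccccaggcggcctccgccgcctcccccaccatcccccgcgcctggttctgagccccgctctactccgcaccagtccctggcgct
Kcnn3, chr3:89519914-89520163, plus strand: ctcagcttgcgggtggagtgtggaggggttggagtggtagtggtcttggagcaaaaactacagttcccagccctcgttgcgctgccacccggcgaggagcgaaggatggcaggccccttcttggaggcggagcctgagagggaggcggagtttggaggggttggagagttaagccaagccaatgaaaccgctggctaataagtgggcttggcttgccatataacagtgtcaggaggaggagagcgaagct
Kcnj4, chr15:79505242-79505491, minus strand: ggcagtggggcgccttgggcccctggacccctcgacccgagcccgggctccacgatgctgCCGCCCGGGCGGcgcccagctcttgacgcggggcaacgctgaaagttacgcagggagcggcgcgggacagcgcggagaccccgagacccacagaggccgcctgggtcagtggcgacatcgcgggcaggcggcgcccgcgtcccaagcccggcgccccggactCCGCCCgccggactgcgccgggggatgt
Kcnh1, chr1:192190527-192190776, plus strand: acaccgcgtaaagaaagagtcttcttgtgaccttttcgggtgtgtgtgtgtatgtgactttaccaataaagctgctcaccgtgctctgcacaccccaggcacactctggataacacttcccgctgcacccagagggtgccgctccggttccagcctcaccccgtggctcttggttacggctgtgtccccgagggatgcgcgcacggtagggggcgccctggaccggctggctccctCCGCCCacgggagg
Kcnq5, chr1:21961943-21962192, minus strand: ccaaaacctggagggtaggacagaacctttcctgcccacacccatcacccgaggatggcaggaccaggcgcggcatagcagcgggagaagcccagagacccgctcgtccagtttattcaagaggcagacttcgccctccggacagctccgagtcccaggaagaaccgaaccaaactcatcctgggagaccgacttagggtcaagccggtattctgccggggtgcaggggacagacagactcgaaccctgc

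The start of Kcnn3 lay in a PVT H3K27ac peak of 6.08 kb with 35 and 56.5 CPM in the WT and 49.5 and 43.8 CPM in the Polg(D181A) libraries. A NAC peak of 4.45 kb also covered it, and no COR or CP peak did. The outer Kcnip1 start lay in a PVT peak of 0.322 kb with 1.17 to 2.46 CPM and in no peak of another region. The inner start lay in a PVT peak of 7.77 kb with 36.5 to 48.6 CPM, a NAC peak of 2.35 kb with 12.5 to 47.7 CPM and a COR peak of 0.648 kb with 0 to 5.30 CPM. The Kcnj4, Kcnh1 and Kcnq5 starts lay in no PVT H3K27ac peak. Kcnj4 had a NAC peak of 8.38 kb with 77.7 to 104 CPM and a CP peak of 0.251 kb, and Kcnh1 and Kcnq5 had peaks in COR and NAC. All 3 starts overlapped a PVT ATAC peak, with 10.5 to 21.9 CPM at Kcnq5, 2.58 to 11.48 CPM at Kcnh1 and 0 to 9.30 CPM at Kcnj4. For Kcnq5 this follows from the choice of the start, and its other entry, chr1:21962651-21962900, overlapped no ATAC peak. Of the 34 entries with a PVT ATAC peak, 7 (20.6%) lay in no PVT H3K27ac peak, those of Kcnh1, Kcnh4, Kcnj4, Kcnj10, Kcnk5, Kcnn1 and Kcnq5, against 4103 of 12262 (33.5%) over all genes.

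In the same 250 bases and on both strands, 42 of the 94 entries (44.7%) held a GC box, against 32.7% of all 32851 entries. TATAAA was found in 3 entries (3.19%), against 12.4%, and the E-box CAGCTG in 22 (23.4%), against 13%. Dinucleotide CG counts were 35 before Kcnj4, 17 before Kcnh1, 14 before Kcnq5, 10 before Kcnn3, and 12 and 6 before the inner and outer Kcnip1 starts. The 11 entries with an H3K27ac peak in all 4 regions had a median of 16 CG (1 to 43), and the 23 without any had a median of 4 (0 to 23). Entries with a peak in 1, 2 and 3 regions had medians of 9, 8 and 7, so the count did not rise steadily.

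Regions were compared on counts summed over all peaks of a gene, to ask whether PVT neurons carry another acetylation pattern over these genes than cortical and striatal neurons. Of the 94 genes, 70 had peaks in all 4 tables and were tested; 22 had peaks in 1 to 3 tables and 2 in none. The 22 were mostly auxiliary, leak or inward rectifier genes with few peaks, from Kcne1, Kcne3 and Kcna7 to Kcng3, which had 4 COR, 10 CP, 6 NAC and 0 PVT peaks. Between regions, 33 of the 70 (47.1%) differed by edgeR's quasi-likelihood test with Benjamini-Hochberg adjustment (adjusted p under 0.05), against 24.3% of all 12036 genes tested. They also had more signal than most genes, with a median of 9.53 kb called as peak in PVT against 4.07 kb and 86.8 CPM against 37.6 CPM over all genes, and the part of this in the larger share was not tested. PVT against the mean of the other regions was higher at 15 (all genes 12.1%) and lower at 12 (all genes 8.72%). COR was higher at 13 (all genes 7.79%) and lower at 4 (all genes 4.69%). CP was higher at 8 (all genes 6.43%) and lower at 8 (all genes 8.73%). NAC was higher at 5 (all genes 4.64%) and lower at 5 (all genes 2.75%, and 7.39% in either direction), a split of 7 and 4 with total counts as library sizes. The median log2 PVT difference was 0.24 over the 70 genes and 0.36 over all genes, and the latter was 0.47 with DESeq2 size factors and 0.23 with total counts. All 4 PVT libraries lay above the other 12 at 11 of the 70 genes (15.7%, all genes 9.95%) and below them at 6 (8.57%, all genes 4.38%).

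These sums moved with the length called as peak. Over the 70 genes the log2 PVT difference and the log2 ratio of covered length had a Spearman correlation of 0.93, a description only, since both come from the same peak sets. With covered length as an offset, 0 of the 70 genes passed for PVT, COR or NAC and 9 between regions. For CP 26 of the 70 passed, 24 higher and 2 lower, beside 2006 higher and 218 lower of all 12036 genes, whose median log2 CP difference went from -0.20 to 0.76; that for PVT went from 0.36 to -0.24. The direction turned under the offset in 18 of the 44 region results of named genes, and the value with the offset is given beside each of them below. A summed difference below holds both the length called in a gene's window and the counts per length, and the cause of its fall under the offset was not tested. With peaks within 1 kb of the gene ends alone, 30 genes could be tested and 3 passed for PVT.

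**Figure D1:**
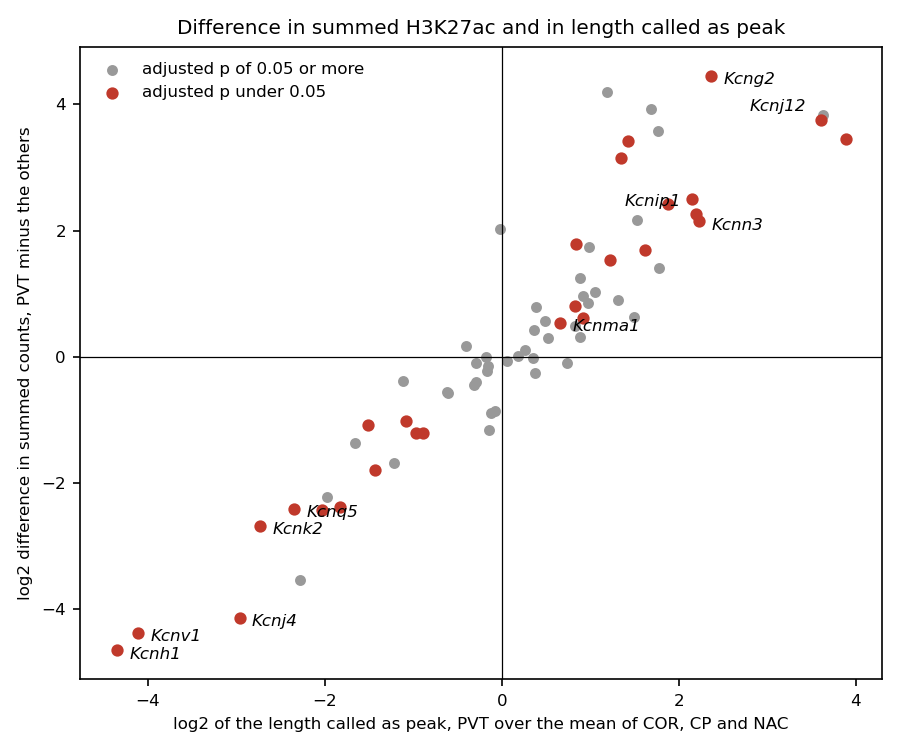
Each point is 1 of the 70 tested genes, with the log2 ratio of the length called as peak (PVT over the mean of COR, CP and NAC) on the x axis and the log2 difference in summed H3K27ac counts on the y axis. Points rise together (Spearman 0.93), from Kcnh1 and Kcnv1 at the lower left to Kcnj12 and Kcng2 at the upper right, and red points passed the test.

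Among voltage-gated pores, the families of axonal and somatic delayed rectifiers and fast-spiking channels held no gene past the threshold. Tested were 7 Kcna, 2 Kcnb and 4 Kcnc genes, and 0 passed in any region comparison. Over all genes 24.3% differed between regions, and whether these few genes fall short of that share was not tested. Kcna1, a low-threshold axonal channel, stood at 32.7 ± 3.96 CPM in PVT (SD, n = 4, as for all levels below) and 10.2 ± 8.70 CPM in CP. Its partner Kcna2 had regional means of 109 to 161 CPM. Kcnc2, a fast-spiking channel, had 310.3, 216, 284 and 291 CPM in PVT and 3.14 to 109.5 CPM in NAC, and its PVT difference had an adjusted p = 0.17. Among A-type genes, Kcnd2 stood at 394 ± 38.4 CPM in PVT and passed no test, while Kcnd3 was higher in COR (482 ± 53.3 CPM, adjusted p = 0.016) and lower in CP (145 ± 60.4 CPM, adjusted p = 0.0038). The CP difference of Kcnd3 turned to 0.60 with the offset and to 1.83 at the gene ends.

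Of 8 Kcnh genes, the ether-a-go-go family, 4 differed between regions (all genes 24.3%), and these 4 were lower in PVT (all genes 8.72%) and higher in COR (all genes 7.79%). The other 4 passed no test, and Kcnh2, Kcnh5 and Kcnh8 had their highest mean in PVT, at 127 ± 21 CPM, 266 ± 31.8 CPM and 84.7 ± 19.5 CPM. Kcnh1 had 35.9, 15.8, 62 and 15.5 CPM in the PVT libraries (WT first, here and below), 1039, 876, 1230.5 and 947 CPM in COR and at least 501 CPM in each library outside PVT. The PVT libraries lay below all others (log2 difference -4.65 ± 0.40, SE, as for values of this form below, adjusted p = 8.0e-06 by edgeR, as for all region p-values), with 3.56 kb called in PVT and 105 kb in COR, and Kcnh1 was higher in COR (adjusted p = 6.0e-04; -0.32 with the offset) and NAC (adjusted p = 0.0026; -0.17 with the offset). Kcnh3 had 17.6 to 18.9 CPM in PVT, below all others, and 100.2 to 289 CPM in COR, and was lower in PVT (-2.42 ± 0.36, adjusted p = 4.4e-04) and higher in COR (2.09 ± 0.28, adjusted p = 6.3e-04; -0.35 with the offset). Kcnh7, of the erg group, was lower in PVT (159.6 ± 23.9 CPM, adjusted p = 0.0069) and higher in CP (453 ± 78.2 CPM, adjusted p = 0.012). Kcnh4 was lower in PVT (34.9 ± 2.55 CPM, adjusted p = 0.024) and stood at 122 ± 11.9 CPM in COR.

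The M-current genes went opposite ways. Kcnq5 had 137, 116, 150.4 and 186 CPM in PVT, below the 348 CPM or more of every other library (-2.41 ± 0.28, adjusted p = 6.2e-05), on 13.3 kb against 46.4 to 94.2 kb elsewhere. It was higher in CP (adjusted p = 0.0091) and NAC (adjusted p = 0.0092; -0.35 with the offset). Kcnq3, which pairs with Kcnq5 in M channels, had 1272, 992, 1018 and 997 CPM in PVT, above the 880.1 CPM that no other library exceeded (0.80 ± 0.16, adjusted p = 0.0038; -0.11 with the offset).

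Among silent subunits, Kcnv1 was low and Kcng2 high in PVT. Kcnv1 had 7.23, 9.06, 3.63 and 8.95 CPM in PVT, on 0.495 kb, below the 50.5 CPM or more of the others (-4.38 ± 0.52, adjusted p = 8.7e-05), and was higher in CP (282 ± 152 CPM, adjusted p = 7.2e-04). Kcng2 had 101, 124, 108 and 104 CPM in PVT, above all others (4.45 ± 0.87, adjusted p = 0.0036), and 0, 0, 57.8 and 29 CPM in CP, where it was lower (adjusted p = 0.013). With both CP WT libraries at 0, the size of the PVT and CP differences of Kcng2 depends on the prior count of the fit. Kcng1 was higher in CP (81.8 ± 59.2 CPM, adjusted p = 0.012). Kcnf1 differed between regions (adjusted p = 0.028) but passed in no single region, at 54.5 ± 8.71 CPM in PVT and 137 ± 59 CPM in NAC.

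**Figure D2:**
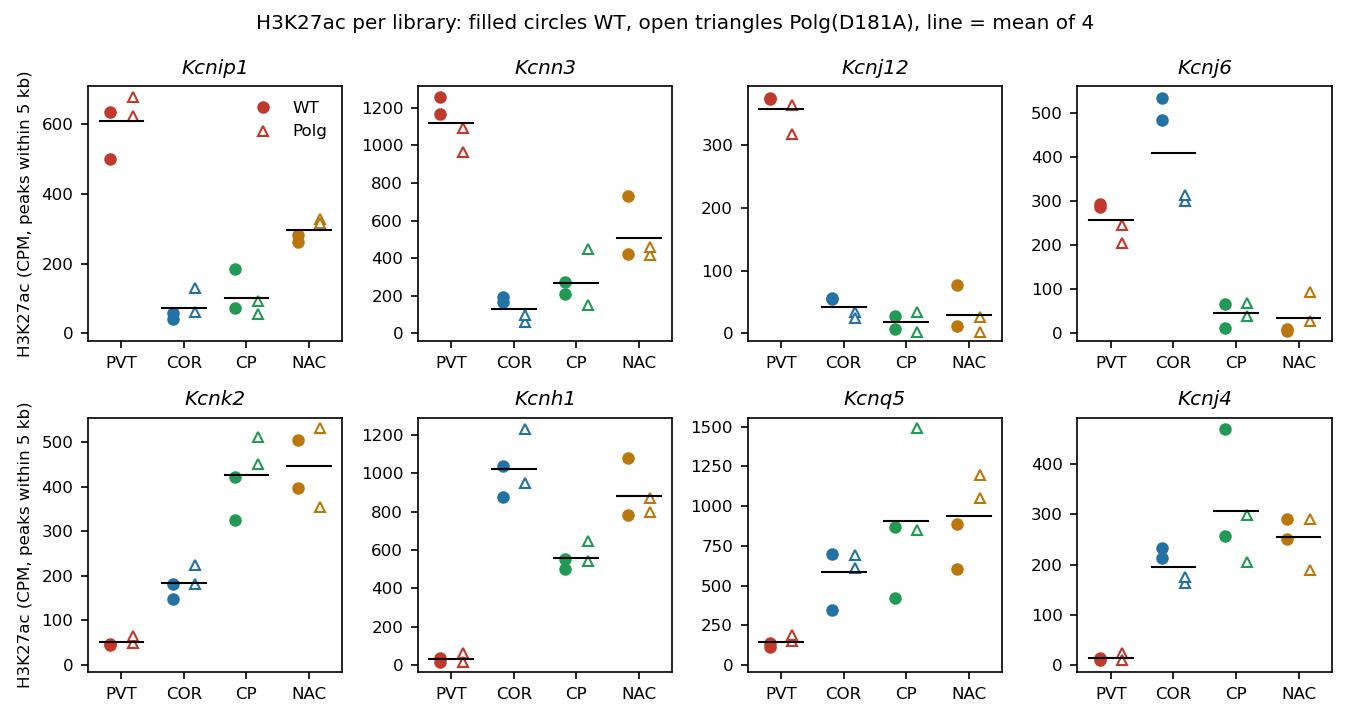
H3K27ac CPM of 8 genes (y axes, separate scales from 0) in the 16 libraries by region (x axis), with filled circles for WT, open triangles for Polg(D181A) and a line at the mean of 4. The PVT libraries lie above all others for Kcnip1, Kcnn3 and Kcnj12 and below all others for Kcnk2, Kcnh1, Kcnq5 and Kcnj4, while Kcnj6 is high in PVT and COR.

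Of 11 Kcnj genes tested, 7 differed between regions (all genes 24.3%); against the other regions, 5 were higher (all genes 12.1%) and 2 lower (all genes 8.72%) in PVT. The G-protein-gated channel Kcnj6, which carries slow inhibition, had 286, 294, 206 and 245 CPM in PVT, 534, 483, 299 and 314 CPM in COR and 5.59 to 93.9 CPM in CP and NAC. PVT and COR did not overlap the striatal libraries, and Kcnj6 was higher in PVT (1.79 ± 0.37, adjusted p = 0.0043) and COR (2.63 ± 0.36, adjusted p = 7.6e-04) and lower in NAC (-2.93 ± 0.49, adjusted p = 0.0037). Its partner Kcnj9 had 395, 346, 370.3 and 335 CPM in PVT and 412, 200.1, 506 and 333 CPM in COR, and was higher in PVT (adjusted p = 0.0043) and COR (adjusted p = 0.0088) and lower in CP (55.6 ± 36.2 CPM, adjusted p = 0.0038; 0.48 with the offset). Kcnj3, of the same group, was higher in COR (235 ± 82.7 CPM, adjusted p = 0.022). Kcnj5, the fourth, had 107, 64, 85.4 and 76.2 CPM in PVT and at most 16.4 CPM elsewhere, with an adjusted p = 0.084.

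The classical inward rectifiers parted. Kcnj12 had 375, 373, 362 and 317 CPM in PVT, above the 77.4 CPM that no other library exceeded (3.76 ± 0.64, adjusted p = 0.0012; -0.03 with the offset), on 33.5 kb against 1.62 to 4.81 kb elsewhere. Its close relative Kcnj14 stood at 75.8 ± 21 CPM in PVT against means of 4.19 to 11.1 CPM elsewhere (adjusted p = 0.043), although its test over all regions did not pass (adjusted p = 0.14). Kcnj4 went the other way, with 10.5, 13.1, 24.1 and 9.26 CPM in PVT and at least 163 CPM in each other library (-4.14 ± 0.35, adjusted p = 7.1e-06). It was higher in COR (adjusted p = 0.033), CP (adjusted p = 6.6e-04) and NAC (adjusted p = 0.0044). Kcnj2 was lower in PVT (15.9 ± 4.94 CPM, adjusted p = 0.010) and higher in NAC (137 ± 17.5 CPM, adjusted p = 0.031). Kcnj10, the potassium-buffering channel of glia, had 54.6, 39.6, 34 and 47.3 CPM in PVT, above all other libraries (3.14 ± 0.67, adjusted p = 0.0060). It had 0, 0, 20.4 and 29.1 CPM in CP, where it was lower (-6.87 ± 1.18, adjusted p = 0.0030). With both CP WT libraries at 0, the size of the PVT and CP differences of Kcnj10 depends on the prior count of the fit. Astrocyte markers summed to 143 to 164 CPM in the same PVT libraries, 104 to 199 CPM in COR, 70.5 to 129 CPM in CP and 103 to 124 CPM in NAC. Their part in the Kcnj10 result was not tested.

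Among leak channels, 8 of 14 were tested and 3 differed between regions (all genes 24.3%). Kcnk2, a stretch- and lipid-sensitive channel, had 44.5, 46.6, 49.8 and 64.2 CPM in PVT, 149 to 224 CPM in COR, 325 to 512 CPM in CP and 354 to 531 CPM in NAC. PVT lay below every other library (-2.68 ± 0.21, adjusted p = 3.5e-06), and CP (1.40 ± 0.17, adjusted p = 2.2e-04) and NAC (1.5 ± 0.16, adjusted p = 3.4e-04; -0.48 with the offset) were higher. Its relatives Kcnk10 and Kcnk4 were higher in PVT, at 402 ± 38.5 CPM, adjusted p = 0.022 and 164 ± 19.5 CPM, adjusted p = 0.027, each with all 4 PVT libraries above the other 12. Kcnk9, an acid-sensitive leak channel, had no CP peak and was not tested; it had 127, 124, 117 and 156 CPM in PVT and 163, 100.05, 275 and 134 CPM in COR, which overlapped.

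Among calcium-activated genes, Kcnn3 held the widest acetylated domains. It had 1166, 1256, 1095 and 964 CPM in PVT, above the 733 CPM that no other library exceeded, with 116 kb called in PVT and 18.2 kb in COR. Its peaks of 29.9, 21.5 and 20.1 kb were the widest of the 1096 PVT peaks. It was higher in PVT (2.15 ± 0.23, adjusted p = 3.7e-05; -0.27 with the offset) and lower in COR (-2.17 ± 0.29, adjusted p = 5.8e-04). The other small-conductance genes tested were lower in PVT, Kcnn2 at 162 ± 21.9 CPM, adjusted p = 0.014 and Kcnn1 at 15.9 ± 4.24 CPM, adjusted p = 0.025. Kcnma1, the large-conductance channel, had 1545, 1392, 1317 and 1354 CPM in PVT and 1950.2, 1452, 1549 and 1306 CPM in COR, above all CP and NAC libraries (633 to 892 CPM). It was higher in PVT (0.53 ± 0.12, adjusted p = 0.0061) and COR (0.74 ± 0.12, adjusted p = 0.0016) and lower in CP (-0.77 ± 0.13, adjusted p = 0.0018) and NAC (-0.50 ± 0.12, adjusted p = 0.031). With the offset the Kcnma1 difference turned to -0.50 in COR and to 1.12 in CP, where it had 19.4 CPM per covered kb against 8.38 in COR, 8.72 in PVT and 9.84 in NAC. Kcnt2, a sodium-activated channel, was higher in COR (526 ± 209.9 CPM, adjusted p = 0.017) and lower in PVT (167 ± 36.9 CPM, adjusted p = 0.032).

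Among auxiliary subunits tested, 2 of 3 Kcnab, 1 of 4 Kcnip and 1 of 3 Kcnmb genes were higher in PVT (all genes 12.1%). None was lower in PVT (all genes 8.72%), and the 1 Kcne gene tested passed nowhere. Calls in COR and CP went both ways, and those in NAC were all lower (all genes 2.75%). Kcnip1 had 636, 501, 678 and 623 CPM in PVT, 263 to 328 CPM in NAC, 57.2 to 185 CPM in CP and 42.5 to 131 CPM in COR. PVT lay above every other library (2.26 ± 0.24, adjusted p = 3.7e-05), and Kcnip1 was lower in COR (-1.91 ± 0.30, adjusted p = 0.0017) and CP (-1.24 ± 0.29, adjusted p = 0.012). With the offset the Kcnip1 difference turned to -0.48 in PVT and to 1.55 in CP, where it had 26.4 CPM per covered kb against 8.88 in PVT. Kcnip4, another Kcnd partner, was lower in COR (402 ± 199.99 CPM, adjusted p = 0.041; 0.43 at the gene ends) and higher in CP (1247 ± 612 CPM, adjusted p = 0.043). Kcnmb2, which inactivates the large-conductance channel, was higher in PVT (247 ± 38.4 CPM, 1.69 ± 0.31, adjusted p = 0.0019; -0.09 with the offset) and lower in NAC (45.6 ± 33.9 CPM, adjusted p = 0.0088), whereas Kcnmb4 was higher in COR (285 ± 78.8 CPM, adjusted p = 0.0041) and lower in NAC (62.9 ± 27.8 CPM, adjusted p = 0.030). The COR difference of Kcnmb4 turned to -0.55 with the offset and -0.03 at the gene ends, and the NAC difference to 0.15 with the offset. Kcnab2, a beta subunit of Kcna channels, was higher in COR (410.3 ± 71.2 CPM, adjusted p = 0.0021; -0.13 with the offset) and PVT (331 ± 46.9 CPM, adjusted p = 0.024) and lower in NAC (125 ± 22.7 CPM, adjusted p = 0.0024). Kcnab3 was lower in COR (5.16 ± 6.73 CPM, adjusted p = 0.016), where 0.530 kb was called, the libraries had 0, 0, 14.2 and 6.49 CPM, and it was higher in PVT (63 ± 8.11 CPM, adjusted p = 0.034). Kcnab1 differed between regions (adjusted p = 0.047) and passed in no single region.

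**Figure D3:**
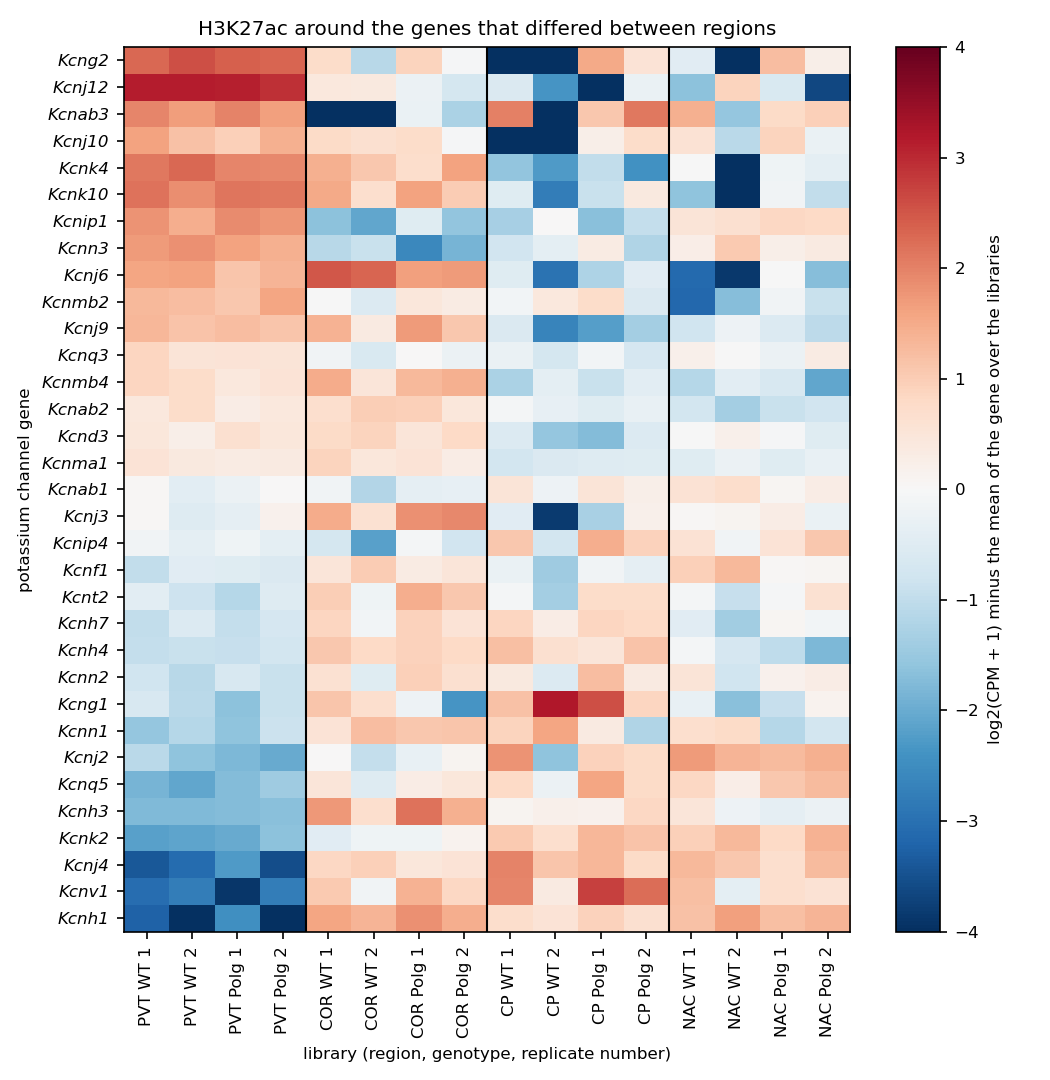
Rows are the 33 genes that differed between regions, ordered by the PVT difference, columns are the 16 libraries, and the colour is log2(CPM + 1) minus the mean of the gene. The 4 PVT columns are red in the upper rows and blue in the lower ones, and outside PVT dark blue cells are most frequent in the sparse second CP WT library.

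The 12 PVT genes of smallest p (Kcnn3, Kcnip1, Kcnj12, Kcnmb2, Kcng2, Kcnq3, Kcnk2, Kcnj4, Kcnh1, Kcnq5, Kcnv1 and Kcnh3) passed whichever library was left out, with adjusted p of at most 0.036 by edgeR. The counts moved more: 27 genes passed for PVT, 16 to 17 without any 1 PVT library and 44 without the first CP WT library, and 33 differed between regions, 21 to 22 without any 1 PVT library and 50 without the first CP WT library. For COR 17 passed, 10 without the first and 11 without the second Polg(D181A) COR library, and 34 and 27 without the first and second CP WT library. For CP 16 passed, and 32 without the first CP WT library. For NAC 10 passed, 25 and 16 without the first and second CP WT library, and 5 without the second Polg(D181A) NAC library. Without the first Polg(D181A) CP library the CP calls of Kcnq5, Kcnip1, Kcng1 and Kcng2 were lost; that of Kcng1 was also lost without the second CP WT library and that of Kcng2 without the first NAC WT library. Without the second Polg(D181A) NAC library the NAC calls of Kcnq5 and Kcnmb2 were lost, and that of Kcnq5 also without the first NAC WT library. Kcnab3 in COR lost its call without any 1 COR library or the first CP WT library. The calls of Kcnip4 in COR and of Kcnj2, Kcnmb4 and Kcnma1 in NAC were lost in 12, 11, 9 and 9 of the 16 omissions.

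The gene of each subfamily with the most WT H3K27ac per covered kb in PVT lay between 9.12 CPM per kb (Kcng2) and 17.6 CPM per kb (Kcnh7) among those with more than 1 peak. Between these lay Kcnj3 at 16.2, Kcnc2 at 14.9, Kcnt2 at 14.5, Kcna3 at 14.1, Kcnq3 at 12.9, Kcnd2 at 12.5 and Kcnk9 at 12.2 CPM per kb. Kcnab1, Kcnmb4, Kcnip3, Kcnn2 and Kcnma1 followed at 12.1, 11.4, 11.3, 10.5 and 9.13 CPM per kb. Genes with 1 PVT peak gave 20.2 (Kcne3, on 0.151 kb), 16.5 (Kcnv1), 9.45 (Kcns1), 7.75 (Kcnf1) and 6.66 CPM per kb (Kcnu1).

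The 6 genes of smallest p that were lower in PVT acetylation each held ATAC peaks there, from 2 (Kcnh3 and Kcnv1) to 27 (Kcnq5). Kcnip4 (339 ± 8.35 CPM over 68 peaks) and Kcnma1 (337 ± 51.2 CPM over 38 peaks) had the most ATAC counts of the genes named here. All 12 open regions of Kcnn3 and all 4 of Kcnj12 overlapped acetylated peaks, as did 16 of 28 for Kcnip1. The numbers were 1 of 12 for Kcnh1, 0 of 3 for Kcnj4, 2 of 10 for Kcnk2 and 5 of 27 for Kcnq5, but 2 of 2 for Kcnv1 and 1 of 2 for Kcnh3. Over all members the share was 42.9%. These genes were named for high or low PVT H3K27ac, which moves with the length called, so the overlaps are a description only. Kcnq5 still had 142 ± 10.3 CPM and Kcnh1 55 ± 5.28 CPM, beside 138 ± 18.4 CPM for Kcnn3. Over the 94 genes, summed ATAC and PVT H3K27ac levels had a Spearman correlation of 0.82, a description only, and the H3K27ac level one of 0.63 with the gene span.

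The genotype comparison asked whether Polg(D181A) moved acetylation or accessibility at these genes, and no peak passed in any of the 5 chromatin tables by edgeR's quasi-likelihood test with Benjamini-Hochberg adjustment. In PVT 0 of 1088 tested peaks passed (all peaks 0%), with 67 (6.16%) at an unadjusted p under 0.05 where 8.09% of all peaks were. COR gave 0 of 1105 (all peaks 0%) and 69 unadjusted (all peaks 9.29%), and CP 0 of 758 (all peaks 0%) and 56 unadjusted (all peaks 6.69%). NAC gave 0 of 987 (all peaks 0.00476%) and 23 unadjusted (all peaks 1.60%), and ATAC 0 of 669 (all peaks 0.00114%) and 34 unadjusted (all peaks 6.13%). DESeq2 called 90 in PVT, 136 in COR, 168 in CP, 24 in NAC and 0 in ATAC, and limma voom 51, 100, 121, 50 and 0. The shares of all peaks called by these methods are not given here, so the numbers are not read as results about these genes. The biological coefficient of variation fitted by edgeR was 1.06 in PVT, 1.71 in COR, 2.20 in CP, 1.83 in NAC and 0.44 in ATAC, with 2 residual degrees of freedom in each.

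The peaks of smallest p, none of which passed, are given as values. In PVT a peak of Kcns1 at chr2:164170578-164171473 had 479 and 615 counts in WT and 0 and 0 in Polg(D181A) (adjusted p = 0.56 by edgeR). A peak of Kcnc1, a fast-spiking channel, at chr7:46399487-46403060 had 16.1 and 17 CPM in WT and 4.16 and 2.20 CPM in Polg(D181A), and one of Kcnab1 at chr3:65288832-65289960 had 4.46 and 5.72 CPM against 15.6 and 17.1 CPM (adjusted p = 0.56 for both by edgeR). In COR, peaks of Kcnt1, Kcnma1 and Kcnab1 had 774 to 3414 counts in each WT library and 0 in both Polg(D181A) libraries (adjusted p = 0.53 by edgeR). In CP, peaks of Kcnb2 and Kcnq5 had 0 counts in WT and 362 to 1124 in Polg(D181A) (adjusted p = 0.37 by edgeR). Such peaks with high counts in 1 genotype and 0 in the other did not pass. In NAC, peaks of Kcnh2, Kcnd2 and Kcnip3 had 41.0 to 90.4 CPM in the sparse second WT library and 0 to 9.18 CPM in the other 3 (adjusted p = 0.998 by edgeR). In ATAC, a peak of Kcnj6 at chr16:94878495-94878817 had 4 and 1 counts in WT and 24 and 85 in Polg(D181A) (adjusted p = 0.70 by edgeR), and peaks of Kcnab1 and Kcnn2 had 0 to 1 counts in WT and 14 to 34 in Polg(D181A).

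When counts were summed per gene, which was added after seeing the data, PVT, COR and NAC again gave 0 of 70 (all genes 0.0332%, 0.0748% and 0.00831%), with 0, 3 and 4 at an unadjusted p under 0.05 (all genes 0.939%, 4.05% and 5.41%). CP gave 2 (2.86%, all genes 1.89%), both against WT libraries at 0. The second of these WT libraries is sparse, with 80.1% of the peaks of potassium channel genes at 0, so its 0 says little. The first also had 22.9% of them at 0, although its peaks with a count had a median of 749 counts. No lower bound on the fold difference is drawn from these zeros. Kcnj10 had 0 counts in both CP WT libraries and 218 and 1768 in Polg(D181A) (adjusted p = 0.011 by edgeR). Kcng2 had 0 in both and 618 and 1759 in Polg(D181A) (adjusted p = 0.030 by edgeR). In PVT neither gene parted by genotype, with 54.6 and 39.6 CPM in WT and 34.0 and 47.3 CPM in Polg(D181A) for Kcnj10 and 101 and 124 CPM against 108 and 104 CPM for Kcng2. The median log2 genotype difference of the 70 genes was -0.01 in PVT, 0.24 in COR, 0.36 in CP and 0.02 in NAC, beside -0.01, 0.00, 0.16 and 0.11 over all genes. Genotype by region passed at 0 of 70 genes (all genes 0.399%) by edgeR, with 6 at an unadjusted p under 0.05 (all genes 8.37%). It passed at 5 by DESeq2, whose share over all genes is not given here.

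**Figure D4:**
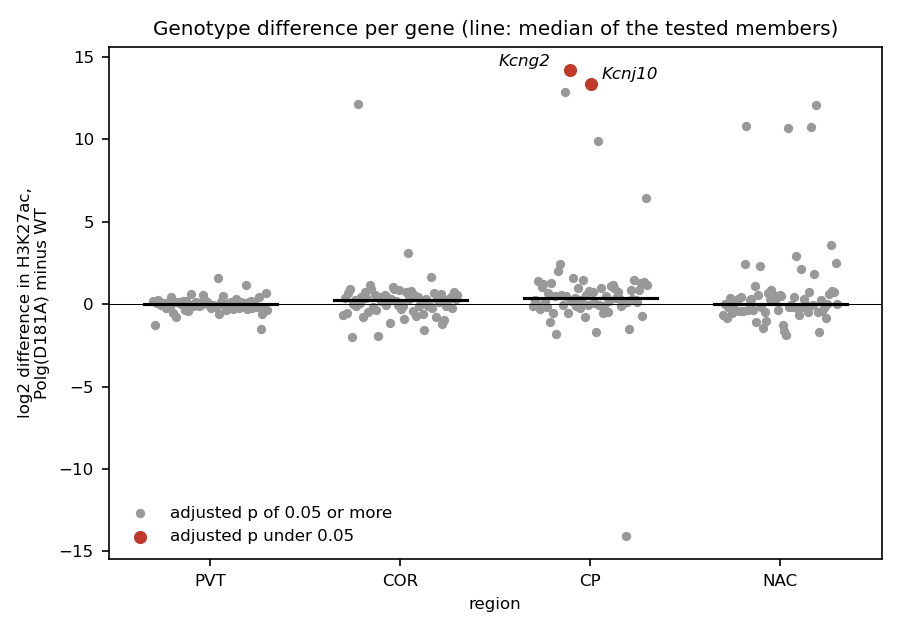
Log2 difference in summed H3K27ac, Polg(D181A) minus WT (y axis), of the 70 tested genes in each region (x axis), with a line at the median. Points gather near 0, most tightly in PVT, and the 2 red points that passed, Kcng2 and Kcnj10 in CP, are fitted against WT libraries at 0, so that their height depends on the prior count.

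RNA was read for all 94 genes in 20 PVT libraries, and 92 passed the filter on low counts. Levels followed gene length: the median CPM of the 94 genes had a Spearman correlation of 0.97 with the gene span, and 0.91 over 20895 protein-coding genes. Spans ran from 1.45 kb (Kcne1l) to 1136 kb (Kcnip4, median 669 CPM). Whether exons or whole spans were counted is not given in the sources used here, and the part of intronic or genomic reads was not tested. Per kb of span the highest medians were 0.79 CPM for Kcnq1, 0.59 for Kcnip4 and 0.53 for Kcnd2. Kcnq3, Kcnma1, Kcnc2 and Kcnn2 had 0.30, 0.26, 0.23 and 0.22 CPM per kb, and Kcnj10, Kcnk9, Kcna2 and Kcna1 0.06, 0.04, 0.02 and 0.01 CPM per kb. Single libraries swung widely, from 58.4 to 1424 CPM for Kcnma1 and from 37.8 to 1026 CPM for Kcnd2. The summed level of the 94 genes was 6711 ± 5543 CPM (SD, n = 4) in WT, 3939.9 ± 1042 CPM in euthymic COX-positive, 6531 ± 1682 CPM in euthymic COX-negative, 4235 ± 1359 CPM in depressive COX-positive and 5761 ± 2156 CPM in depressive COX-negative Polg(D181A) libraries, and the groups overlapped. In these bulk libraries, fewer cells of a type and less RNA per cell cannot be told apart.

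**Figure D5:**
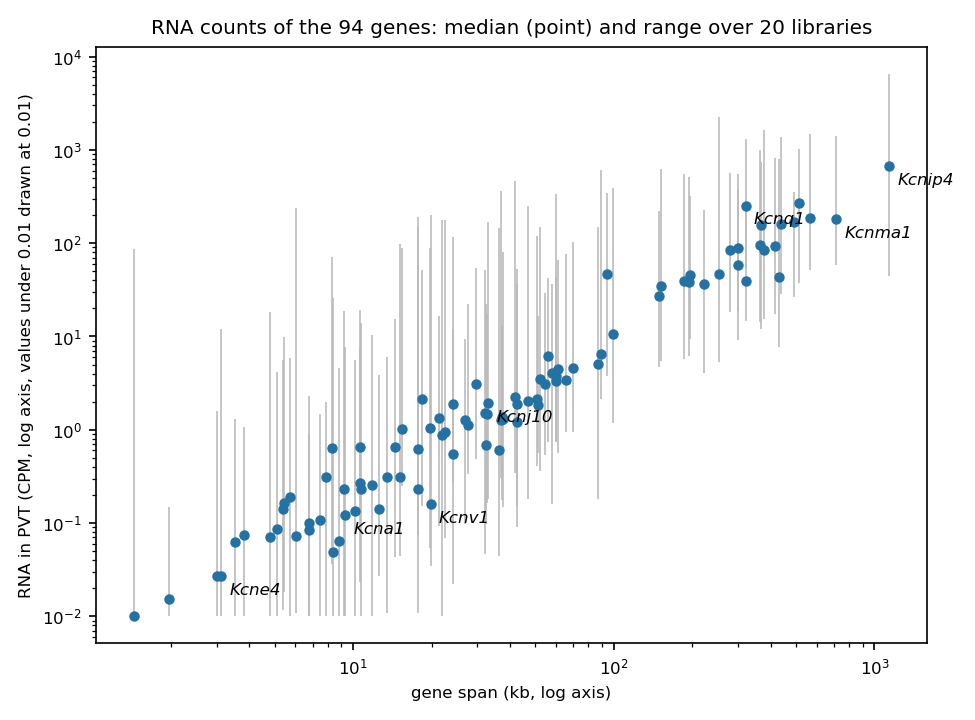
RNA in PVT (y axis, CPM, log axis, values under 0.01 drawn at 0.01) against gene span (x axis, kb, log axis) for the 94 genes, with points at the median of 20 libraries and bars from the lowest to the highest. Medians climb with the span (Spearman 0.97), and the bars are long at every span.

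No potassium channel gene passed in any of 7 RNA contrasts by edgeR's quasi-likelihood test with Benjamini-Hochberg adjustment. Genotype in euthymic COX-positive libraries gave 0 of 92 (all genes 0%), with 20 (21.7%) at an unadjusted p under 0.05 where 15.3% of all genes were. COX class gave 0 in the euthymic state (all genes 0%), 0 in the depressive state (all genes 0%) and 0 on average (all genes 0%), with 20, 10 and 19 unadjusted (all genes 21.2%, 19.9% and 22.8%). State gave 0 in COX-positive (all genes 0%), 0 in COX-negative (all genes 0%) and 0 on average (all genes 1.24%), with 10, 13 and 18 unadjusted (all genes 17.5%, 22.6% and 22.2%). DESeq2 called 12 for genotype, 7, 5 and 7 for COX class and 7, 9 and 7 for state. Its shares over all genes are not given here, so these numbers are not read as results about potassium channel genes. The contrasts share groups and are not independent. The median log2 genotype difference of all genes was -0.01, and 0.19 with DESeq2 size factors and -0.50 with total counts as library sizes, so directions in RNA are relative to that scaling.

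The genes of smallest p were mostly led by 1 or 2 libraries. For genotype, Kcnj14 had 0.142, 0.150, 0.189 and 1.15 CPM in WT and 0.233, 0.692, 13.9 and 70.8 CPM in Polg(D181A), which overlapped, and Kcnrg 0.0346, 0.142, 3.79 and 5.57 CPM and 0.0116, 0.0294, 0.126 and 0.197 CPM (adjusted p = 0.22 for both by edgeR). For COX class in the euthymic state, Kcnu1 had 2.40, 2.85, 3.31 and 3.68 CPM in COX-positive and 2.91, 8.72, 8.98 and 609 CPM in COX-negative libraries (adjusted p = 0.12 by edgeR). Kcne4, a beta subunit, had 0, 0.0657, 4.89 and 12.1 CPM and 0, 0, 0.0271 and 0.0353 CPM, and Kcnj12 0.412, 1.40, 5.13 and 119 CPM and 0.759, 0.893, 1.18 and 1.27 CPM (adjusted p = 0.12 and 0.13 by edgeR). For Kcne4 and Kcnj12, 2 and 1 COX-positive libraries stood high beside low ones.

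For COX class in the depressive state, Kcnk18 and Kcnv1 reached 149 CPM and 202 CPM in 1 COX-negative library each, against 0.598 to 0.660 CPM and 0.0957 to 0.322 CPM in the other 3 (adjusted p = 0.13 for both by edgeR). Without that library the log2 difference of Kcnv1 turned from 7.77 ± 2.35 to -0.37. Kcnk13, a leak channel, had 1.19, 27, 43.4 and 388 CPM in COX-negative libraries (adjusted p = 0.14 by edgeR). Between states in COX-positive libraries, Kcnj9 had 0.0359, 0.0589, 0.241 and 4.62 CPM in euthymic and 0 to 0.0366 CPM in depressive libraries, and Kcne2 0.0359, 0.250, 0.307 and 5.89 CPM and 0 to 0.0433 CPM (adjusted p = 0.14 for both by edgeR). Kcne4 had an adjusted p of 0.14 by edgeR there. In COX-negative libraries, Kcna4, an A-type channel, had 0.553, 1.88, 68 and 145 CPM in depressive and 0.0706 to 1.12 CPM in euthymic libraries, and Kcnk15 0 to 0.0805 CPM and 0.0745, 0.151, 3.95 and 4.17 CPM (adjusted p = 0.086 and 0.087 by edgeR). Kcnv1 led the same contrast (adjusted p = 0.086 by edgeR), and without its 1 high library its log2 difference went from 8.14 ± 2.39 to -0.0034.

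Averaged over states, COX-negative minus COX-positive, Kcnj12 had a log2 difference of -4.15 ± 1.17, Kcna7 of -4.08 ± 1.26 and Kcnj10 of 3.81 ± 1.26 (SE; adjusted p = 0.058, 0.069 and 0.079 by edgeR). Kcnj12 lay at 0.412 to 119 CPM in the 8 COX-positive and 0.429 to 2.74 CPM in the 8 COX-negative libraries, which overlapped. Kcnj10 lay at 0.181 to 10.6 CPM and 0.447 to 167 CPM, and astrocyte markers summed to 65.8 to 615 CPM in the COX-positive and 104 to 875 CPM in the COX-negative libraries. The part of astrocytes in the Kcnj10 values was not tested. Averaged over COX classes, depressive minus euthymic, Kcnj14 had -4.60 ± 1.31, Kcnk9 -3.69 ± 1.19 and Kcnn4 -3.47 ± 1.17 (SE; adjusted p = 0.053, 0.074 and 0.085 by edgeR). Kcnk9 reached 248 CPM in 1 euthymic COX-negative library and lay at 0.181 to 13.1 CPM in the other 15 Polg(D181A) libraries.

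Of 28 partners of potassium channels, 27 were tested for H3K27ac and 9 differed between regions (all genes 24.3%), with 2 higher (all genes 12.1%) and 4 lower (all genes 8.72%) in PVT. Rgs7 (894 ± 142 CPM, adjusted p = 0.0013 by edgeR) and Lrrc52 (110.5 ± 23 CPM, adjusted p = 0.015 by edgeR) were higher. Rgs7 and Gnb5 form a complex that speeds the closing of G-protein-gated Kcnj channels, and Gnb5 was lower (63.2 ± 4.12 CPM, adjusted p = 9.1e-05 by edgeR), as were the synaptic and axonal proteins Dlg2, Adam22 and Adam23. Of 21 other conductances and ion pumps, 19 were tested and 8 differed between regions (all genes 24.3%), with 1 higher and 4 lower in PVT: the exchanger Slc24a3 was higher (761 ± 115 CPM) and Slc24a2, Unc80, Ano2 and Trpc4 were lower. The median log2 PVT differences of these lists were -0.17 and -0.32, beside 0.24 for the potassium channel genes. In RNA, 0 partners and 1 other conductance, the pacemaker channel gene Hcn3, passed in any of the 7 contrasts, as did 1 oligodendrocyte lineage marker, Olig2, and 0 markers of the other cell types. Both passed for state averaged over COX classes, and neither is a potassium channel gene.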

How the data were processed

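Gene-by-library RNA counts and peak-by-library H3K27ac and ATAC counts were used as deposited, with no normalization by the authors evident from the values. Per the submitters' processing notes, mm10 was the build, and STAR, featureCounts from Subread, HOMER and DESeq2 were used, in versions not given there. Which RNA feature was counted, the strand setting, duplicate handling and the peak threshold were not given in the sources used here. The 4 input libraries were not used. Groups follow the labels, in which TG columns were read as Polg(D181A).

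Counts were tested with edgeR 4.0.16 (R 4.3.3; TMM scaling, filterByExpr, robust quasi-likelihood test, Benjamini-Hochberg adjustment over all features, adjusted p under 0.05), and CPM use TMM-scaled library sizes. Genotype was tested per peak within each table. Regions were tested on counts summed per gene over 16 libraries, and RNA in 1 model of 20 libraries. Summing counts of separately called peak sets makes a level depend on the length called. Scripts were tested on simulated data. Python 3.11.15, pandas 2.3.3 and matplotlib 3.10.9 made tables and plots.

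Alternatives were limma 3.58.1 voom, DESeq2 1.42.0, other scalings, filters, windows, a covered-length offset, a replicate block and leaving out each library; gene-level genotype tests and the omission of both sparse libraries were added after seeing the data. The members and lists were chosen with earlier results of these data known. Named genes were the 6 of smallest p per direction in a comparison with at least 3 calls, otherwise the 3 of smallest p, the gene of each subfamily with the densest WT PVT acetylation, 10 preset genes and the 3 highest and 3 lowest PVT ratios. Other genes named, such as Kcnh4, Kcnk4, Kcnk10 and Kcnn1, were chosen after their values were seen. Some genes that this rule picks are not reported here.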

Additional observations from a re-analysis of the deposited data

Results flagged for a closer look

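Among 85 tests in groups of 4 RNA libraries, of named genes and of the level summed over all members, 15 over 11 genes had 1 library far from the other 3 on log2(CPM + 1), where the gap to the nearest library was a larger part of the range than Dixon's critical value. Chance flags about 1 in 20 groups, but these genes were named for the smallest p on the same RNA values, so the number of such groups is not read against it. In Polg(D181A) euthymic COX-positive libraries the ratio was 0.8722 for Kcna7 (highest library 8.35 CPM), 0.8774 for Kcne2 (5.89 CPM), 0.8932 for Kcnj9 (4.62 CPM) and 0.9194 for Kcnv1 (3.34 CPM). In euthymic COX-negative libraries it was 0.8374 for Kcna7 (0.177 CPM) and 0.87 for Kcnk9 (248 CPM against 1.43 to 3.44 CPM in the other 3). In depressive COX-positive libraries it was 0.9365 for Kcna7 (9.92 CPM), 0.8458 for Kcnk15 (0.768 CPM) and 0.8392 for Kcnn4 (4.90 CPM), and 0.8472 for Kcne2, where the lowest library, at 0 CPM, stood apart. In depressive COX-negative libraries it was 0.9947 for Kcne4 (4.42 CPM), 0.9917 for Kcnk18 (149 CPM), 0.898 for Kcnu1 (33.4 CPM) and 0.9641 for Kcnv1 (202 CPM). In WT libraries it was 0.936 for Kcnj14 (1.15 CPM). In 14 of the 15 the library that stood apart was the highest.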

How the results depend on the processing

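Apart from leaving out a library, 497 values of named genes and peaks kept direction and side of the threshold, 39 newly passed, 30 no longer passed and 21 reversed; leaving out a library gave 916, 6, 55 and 2. The cause was not tested where a value moved, except that fewer genes were tested at gene ends. With covered length as an offset 9 genes differed between regions and 0, 0, 26 (24 higher, 2 lower) and 0 passed for PVT, COR, CP and NAC; at gene ends 2, then 3, 1, 1 and 1. Under the offset the log2 PVT differences of Kcnn3, Kcnip1, Kcnj12, Kcnmb2 and Kcnq3 reversed to -0.2656, -0.4775, -0.0267, -0.0927 and -0.108. Those for COR of Kcnh1, Kcnh3, Kcnma1, Kcnab2 and Kcnmb4 reversed to -0.3245, -0.3501, -0.5049, -0.1302 and -0.5504, for CP of Kcnma1, Kcnj9, Kcnd3 and Kcnip1 to 1.1171, 0.4811, 0.6029 and 1.5513, and for NAC of Kcnk2, Kcnh1, Kcnq5 and Kcnmb4 to -0.4758, -0.1727, -0.3497 and 0.1513. At gene ends Kcnmb4 and Kcnip4 in COR reversed to -0.0253 and 0.4267 and Kcnd3 in CP to 1.8326. Kcnv1 in RNA reversed without 1 depressive COX-negative library, to -0.3656 (COX class; -0.3656 to 8.4367 over all omissions) and -0.0034 (state; -0.0034 to 9.0026). With limma voom 55 genes differed between regions, 45, 41 and 26 passed for PVT, COR and CP, and 2 for genotype by region; with DESeq2 30, 34 and 23 passed for COR, CP and NAC and 5 for genotype by region. Without both sparse libraries 32, 26 and 18 passed for COR, CP and NAC and 3 for genotype by region. Genotype peaks passing in PVT, COR, CP and NAC were 51, 100, 121 and 50 by limma voom and 90, 136, 168 and 24 by DESeq2, 1 in CP and 1 in NAC with total counts, and 2 genes in CP with counts summed per gene. In RNA, DESeq2 called 12 for genotype, 7, 5 and 7 for COX class (euthymic, depressive, average) and 7, 9 and 7 for state (COX-positive, COX-negative, average). Counts under these alternatives stand here without the shares over all peaks or genes, so they are not read as results about the members. With no filter on low counts, 1 passed for COX class in the euthymic state, 2 for its average, 1 for state in COX-negative libraries and 1 for its average, and 1 for the last with DESeq2 size factors. Leaving out each library gave 21 to 50 genes between regions, 16 to 44 for PVT, 10 to 34 for COR, 12 to 32 for CP, 5 to 25 for NAC and 0 to 13 for genotype by region. It gave 0 to 67 genotype peaks in CP, 67 without the first WT library and 2 without the second, 0 to 5 in NAC, 5 without the second Polg(D181A) library, and 0 to 0 in PVT, COR, ATAC and each RNA contrast. The replicate block called 1 peak in NAC and changed no call of the 44 named region results. The numbers do not pair the libraries: deviations of same-numbered libraries correlated at 0.00035 in PVT, 0.045 in COR, 0.15 in CP, -0.072 in NAC and -0.049 in ATAC, with 2 numbers in each. No paired analysis was possible for RNA because its columns carry no replicate numbers. The 2 residual degrees of freedom per chromatin table and the coverage of the sparse libraries limit the genotype tests.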
